A study of Mus musculus with 13 samples.

Results

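The tissue by gel interaction asks whether normal and tumor mammary organoids differ in how their gene expression depends on the surrounding gel. It is the collagen I minus Matrigel difference in tumor organoids minus the same difference in normal organoids. The 12 arrays that enter it, of 14 arrays in the series, were chosen by the name of their scanner file and are called batch 2 here. The other 2 arrays repeat normal Matrigel of mice A and B and are called batch 1. The sample of normal Matrigel mouse B is labelled batch 1 but holds an array of each batch. Its batch 2 array, by file name, was used. Organoids are epithelial fragments cut from mammary tissue with enzymes. Normal organoids came from FVB mice, labelled WT, and tumor organoids from MMTV-PyMT mice, whose carcinomas are driven by the polyoma middle T antigen under the mouse mammary tumor virus promoter and were taken at 12 to 16 weeks of age. Ages are not given for the normal mice in the sources used here. All 4 groups were grown in 3D with 2.5 nM FGF2 and collected on day 4, when the submitters saw peak invasion. Matrigel is a laminin-rich basement membrane gel, and the collagen I gel was prepared from rat tail at 3 mg/ml. Each group holds 3 arrays from 3 mice: A, B and D for normal Matrigel, and A, B and C for normal collagen I and both tumor groups. Arrays of 1 tissue that carry the same letter come from 1 mouse, and the mice of the 2 tissues differ. Normal mouse D has no collagen I array here and normal mouse C no Matrigel array. Because each fragment holds several cell types, fewer cells of a type and less RNA per cell cannot be told apart.

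Basement membrane surrounds the normal mammary epithelium and signals through laminin-binding integrins, while collagen I is the fibrous protein of the stroma that invading tumor cells meet. The integrated stress response is a shared reaction to amino acid shortage, misfolded protein or other stress, in which phosphorylation of the translation factor eIF2 raises the transcription factor ATF4. ATF4 in turn induces genes for amino acid uptake and synthesis, tRNA charging and, through CHOP (Ddit3), cell death.

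Levels are log2 processed signals minus the 75th percentile of their array, so 0 is the brightness of that percentile, and a level of one gene is not compared with that of another. A positive interaction means that the collagen I minus Matrigel difference was higher in tumor than in normal organoids. Errors after ± are standard errors of the limma fit (3 arrays per group), and "called" means a limma p adjusted by Benjamini-Hochberg under 0.05 over all 17644 genes tested, 14441 of them with a gene symbol. The arrays were unequally bright. The 75th percentile of the signal was 383 to 570 on the tumor Matrigel arrays, 691 to 812 on the tumor collagen I arrays and 671 to 1216 on the normal ones. Spots well above background made up 56.6 to 58.6% on the tumor Matrigel arrays and 62.1 to 71.4% on the others. Spike-in control probes exceeded the 75th percentile by 2.32 to 2.73 log2 units in tumor Matrigel and by 0.14 to 1.05 in the other groups. The part of this difference in the results was not tested, and it is confounded with the group.

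Of the 17644 genes, 479 (2.71%) were called for the interaction, 238 (1.35%) with a higher and 241 (1.37%) with a lower gel difference in tumor organoids. At an unadjusted p under 0.05 there were 2378 higher (13.5%) and 2210 lower (12.5%). By their 2 gel differences, each judged at an unadjusted p under 0.05, 343 called genes moved with the gel in tumor organoids alone, 190 with a positive and 153 with a negative interaction. In 107 genes (0.606%) the gel difference reversed, 33 of them lower in collagen I in normal and higher in tumor organoids, and 74 the other way. Another 17 moved in normal organoids alone and 12 moved the same way in both tissues by different amounts. A gel difference that missed this threshold is not shown to be absent. Taken separately, the gel difference was called for 7 genes (0.0397%) in normal and 4862 (27.6%) in tumor organoids. Across genes, which are not independent, the 2 gel differences correlated at r of 0.302. In 409 of the 479 called genes (85.4%) the group mean farthest from the other 3 was that of tumor organoids in Matrigel, against 61.5% of all genes. It was normal Matrigel for 36, tumor collagen I for 25 and normal collagen I for 9.

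**Figure D1:**
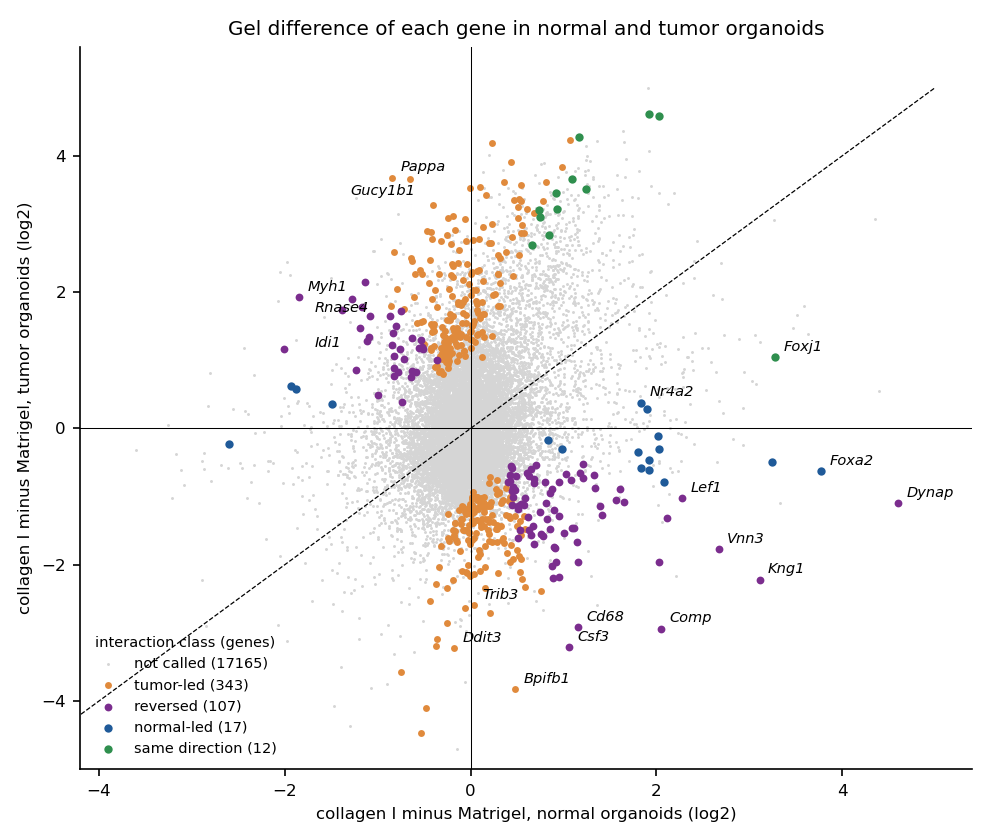
Collagen I minus Matrigel difference of each of 17644 genes in normal organoids (x axis, log2) and tumor organoids (y axis, log2), coloured by interaction class; the dashed line marks equal differences. The 343 genes called through the tumor difference alone lie along the vertical axis, and the 107 reversed genes lie in the upper left (33) and lower right (74) quadrants.

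The calls depended on single arrays and on the model. Since gels share mice within a tissue, the mouse was also fitted as a block. With the mouse as a fixed replicate block, limma called 0 genes, with 3630 at an unadjusted p under 0.05 and 3 residual degrees of freedom, since normal mice C and D then add nothing. With the mouse as a random replicate block, limma called 1640, and all 479 were among them. Leaving out 1 array left 34 calls without normal collagen I of mouse B, 40 without normal Matrigel of mouse B, 41 without normal collagen I of mouse C and 43 without normal collagen I of mouse A. It left 74 without tumor collagen I of mouse A, 93 without normal Matrigel of mouse D and 123 without tumor Matrigel of mouse B. It gave 1932 without normal Matrigel of mouse A, 793 without tumor Matrigel of mouse A and 721 without tumor collagen I of mouse B. The calls of 30 genes, 13 higher and 17 lower, survived the omission of each of the 12 arrays in turn. Of these, 24 have a symbol and 12 were reversed, and all 24 are named below as robust to single arrays. Any other called gene named below lost its call in at least 1 such omission. With the slide as a fixed block, which leaves 2 residual degrees of freedom, all 479 kept their sign, 251 kept their call, and 29 of the 30 kept theirs. Within slides, which allow both gels on slides 1 and 4 for normal and slide 6 for tumor organoids, all 479 also kept their sign. The tumor side is then 1 pair of arrays. All 479 were picked on these same arrays, so their agreement in sign was largely fixed in advance and adds no support.

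The median interaction moved with the level of the gene. Over 5 equal bins of genes from dimmest to brightest it was 0.25, 0.21, 0.09, -0.11 and -0.35, while the median gel difference in normal organoids stayed between -0.05 and 0.04. Of the genes with a higher interaction, 87 of 238 (36.6%) were not well above background on any tumor Matrigel array, against 8.34% of all genes tested and 3 of 241 genes with a lower interaction. Such genes have only a bound there. Where the bound shows a difference between the gels, its fold is given below as "at least", and fitted values that rest on a group below background are said to do so. For it, each array of the dim group is given the larger of 2 values, the gene's own signal and the lowest signal well above background, and their mean is compared with that of the bright group. This bound is approximate, since a higher signal can also fail to stand well above background. On tumor Matrigel of mouse B that lowest signal was -5.02, and Rpgr failed at -4.91. Small folds given as "at least" are therefore not firm. Scaling moved the balance of calls. It was 49.7% higher as fitted, 33.3% of 249 calls after normexp background correction with quantile normalization, and 64.8% of 620 calls with a percentile over bright probes. With normexp alone limma called 10 genes, 1 of them higher, the median over all genes shifted to -0.28, and 115 of the 479 changed sign. The named genes that kept their call with normexp are Comp, Csf3, Cd68, Idi1, Trib3, Ddit3, Avpr1a, Gne and Megf6.

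**Figure D2:**
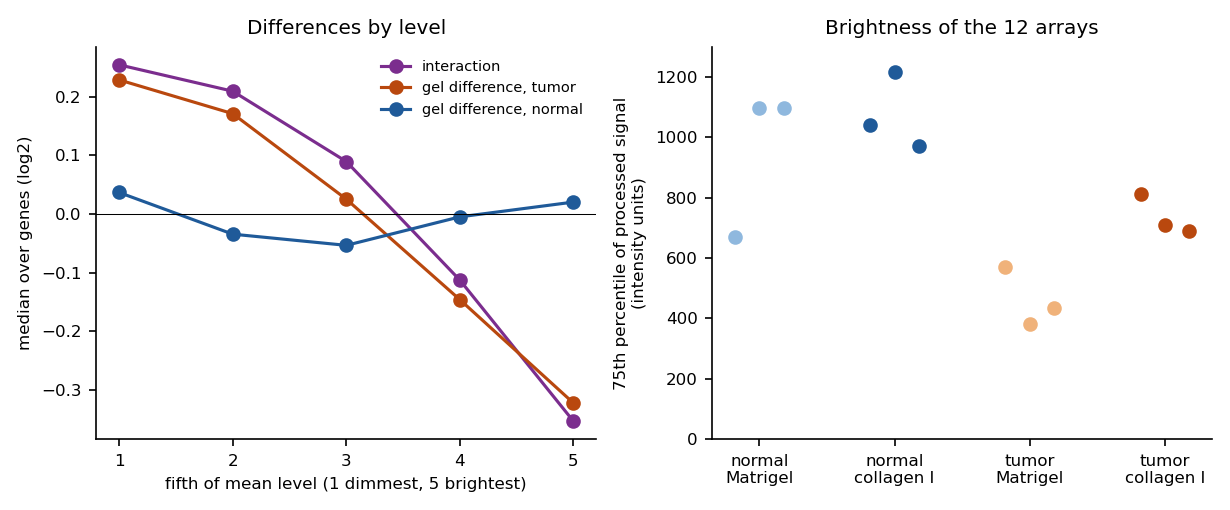
Left, median over genes of the interaction and of the gel difference in each tissue (log2) in 5 equal bins of mean level. Right, 75th percentile of the processed signal (intensity units) of each of the 12 arrays. The interaction runs from 0.25 in the dimmest to -0.35 in the brightest bin, and the 3 tumor Matrigel arrays, at 383 to 570, are the dimmest.

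Csf3, Comp and Cd68 were higher in collagen I than in Matrigel in normal organoids and lower in tumor organoids, with the interaction called in each. Csf3, the neutrophil growth factor G-CSF, read -3.11, -3.31 and -2.74 in normal Matrigel, -1.84, -1.97 and -2.16 in normal collagen I, 2.20, 2.15 and 1.93 in tumor Matrigel and -1.37, -0.63 and -1.35 in tumor collagen I, in the mouse order given above. It was lowest in normal Matrigel and highest in tumor Matrigel, and no 2 groups overlapped. The gel difference was 1.06 in normal and -3.21 in tumor organoids, an interaction of -4.27 ± 0.33 (limma adjusted p = 0.000621), and the call was robust to single arrays. Comp, a secreted cartilage matrix protein of the thrombospondin family, read -0.47, -0.74 and 0.17 in normal Matrigel, 2.05, 1.89 and 1.16 in normal collagen I, -0.07, 0.92 and 0.24 in tumor Matrigel and -2.04, -3.20 and -2.48 in tumor collagen I. Normal collagen I was the highest group and tumor collagen I the lowest, and the 2 Matrigel groups overlapped. Its gel differences were 2.05 and -2.94, the interaction was -4.99 ± 0.54 (limma adjusted p = 0.00573), and the call was again robust to single arrays.

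Cd68, a lysosomal glycoprotein used as a macrophage marker, read -2.66, -3.21 and -1.77 in normal Matrigel, -1.69, -1.44 and -1.03 in normal collagen I, 1.27, 2.05 and 1.53 in tumor Matrigel and -2.01, -1.39 and -0.51 in tumor collagen I. Tumor Matrigel stood above every other array, and tumor collagen I overlapped both normal groups. The interaction was -4.08 ± 0.61 (limma adjusted p = 0.0169). The linear levels of 10 leukocyte markers, Cd68 among them, were summed relative to the 75th percentile. The sum was 2.24 to 28.1 in normal Matrigel and 40.2 to 61.7 in normal collagen I. In tumor organoids it was 4.44 to 7.44 in Matrigel and 3.44 to 7.79 in collagen I. A linear sum follows its brightest members. Lyz2 averaged 3.20 in normal Matrigel, 5.49 in normal collagen I, 0.83 in tumor Matrigel and 2.18 in tumor collagen I. Cd68 averaged -2.55, -1.39, 1.61 and -1.30 in the same order. From 6 to 10 of these markers were well above background on the normal arrays and 6 to 8 on the tumor arrays. Of 17 leukocyte list genes tested, 1, Cd68, was called lower and none higher, and an unadjusted p under 0.05 was reached by 5 lower ones. The list's median interaction was -1.41, with median gel differences of 1.75 in normal and 0.20 in tumor organoids. C1qb, a complement component made by macrophages, was reversed with gel differences of 1.39 and -1.14 and an interaction of -2.54 ± 0.46 (limma adjusted p = 0.0312). The part of leukocyte RNA in the calls of Csf3, Cd68, C1qb and the cytokines below was not tested.

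Dynap, Kng1 and Vnn3 were not well above background on any normal Matrigel array. Dynap, which encodes a dynactin-associated protein, read -8.16, -7.85 and -8.38 in normal Matrigel, -3.38, -3.16 and -4.04 in normal collagen I, -1.95, -1.21 and -1.14 in tumor Matrigel and -3.38, -2.81 and -1.42 in tumor collagen I. Its call, at an interaction of -5.70 ± 0.64 (limma adjusted p = 0.00663), rests on normal Matrigel values below background. In normal organoids it was at least 6.07-fold higher in collagen I, and with normal Matrigel held at its bound the interaction was -3.70. In tumor organoids collagen I was lower by a gel difference of -1.10, and mouse C in collagen I, at -1.42, fell within the range of the Matrigel arrays. Kng1, the precursor of the peptide bradykinin, was at least 2.47-fold higher in collagen I in normal organoids and had a gel difference of -2.22 in tumor organoids, with an interaction of -5.33 ± 0.68 (limma adjusted p = 0.00964). Vnn3, of the vanin family of pantetheinases, was at least 2.04-fold higher in normal collagen I with an interaction of -4.44 ± 0.63 (limma adjusted p = 0.0128). At the bound their interactions were -3.52 and -2.80. All 3 calls were robust to single arrays. Il23a, the p19 subunit of the cytokine IL-23, and Prl6a1, of the prolactin family, shared the pattern at -3.43 ± 0.69 (limma adjusted p = 0.0365) and -3.99 ± 0.82 (limma adjusted p = 0.0374). Their bounds in normal organoids were at least 2.03-fold and at least 1.36-fold higher in collagen I, and at the bound the interactions were -2.33 and -2.40.

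**Figure D3:**
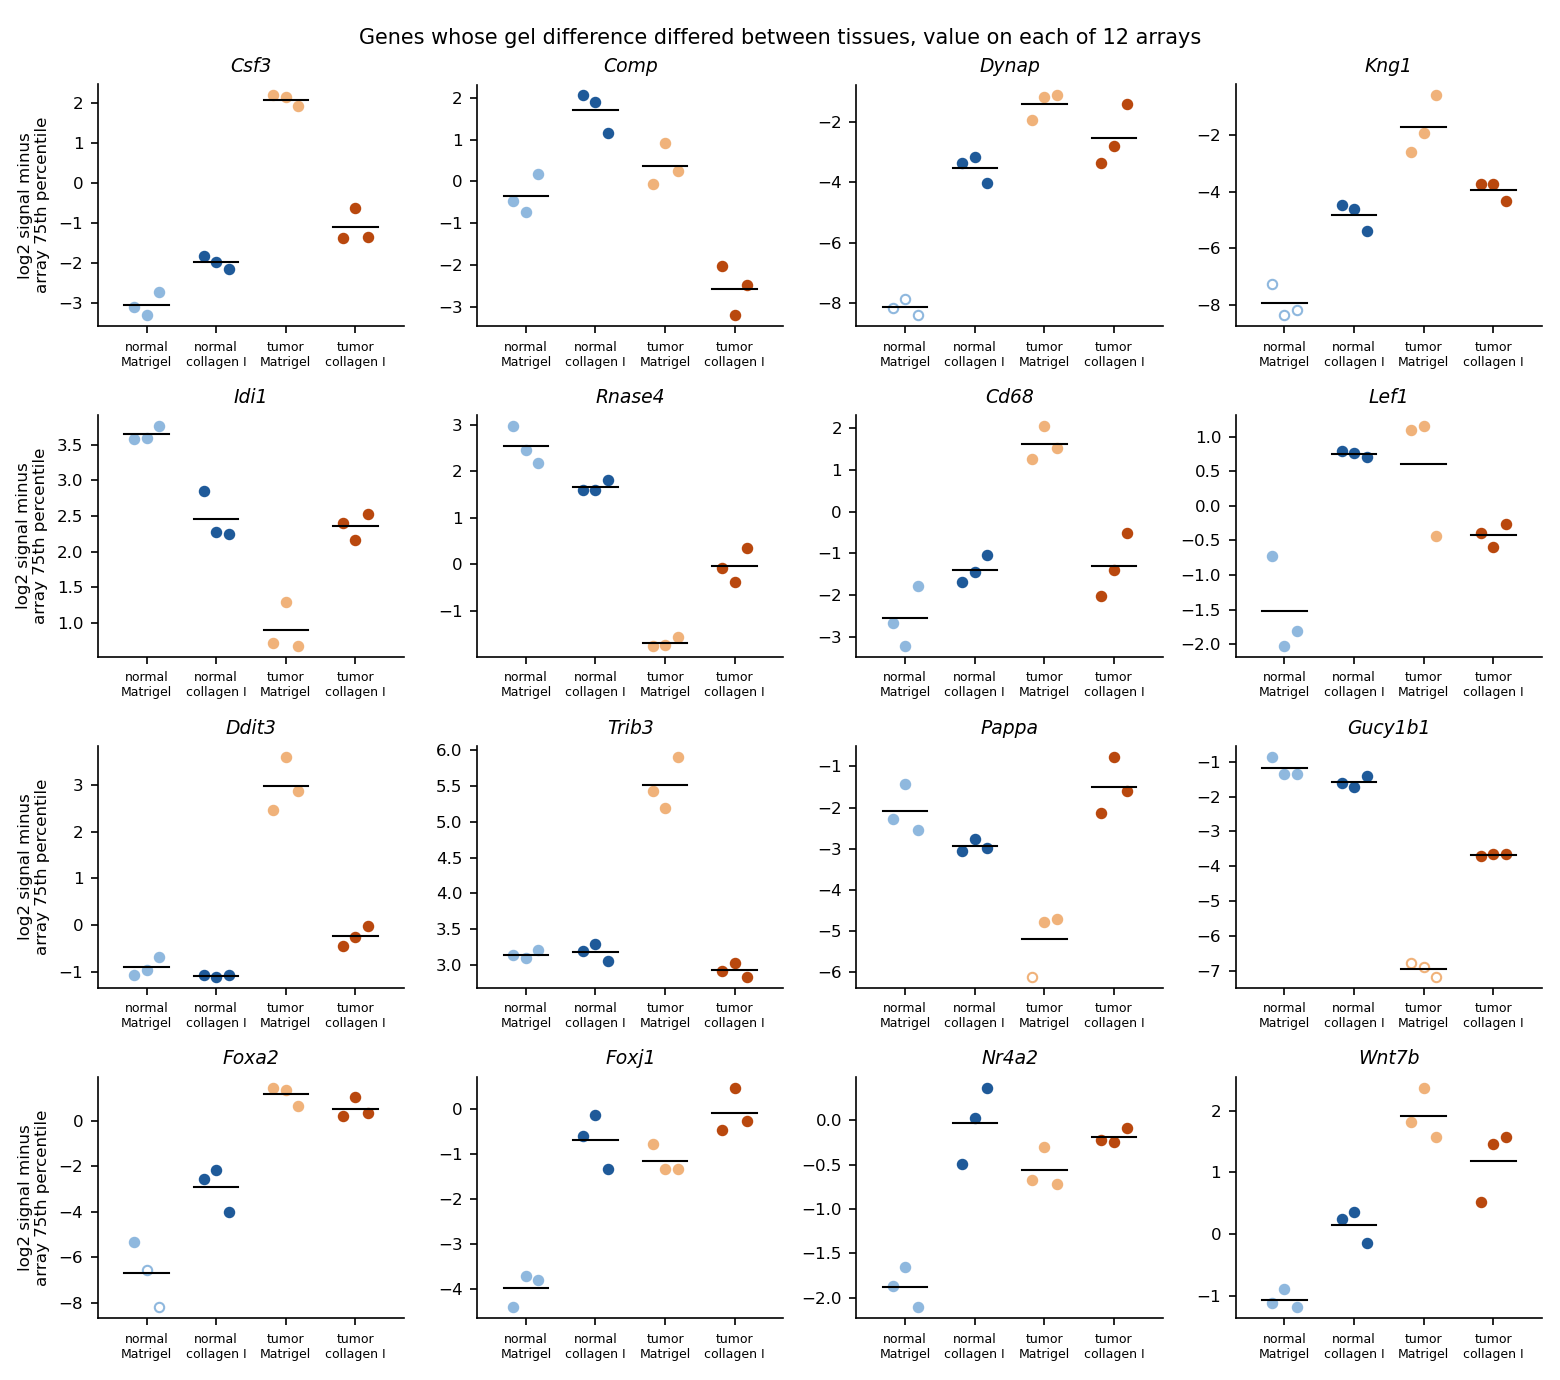
Level of 16 called genes on each of the 12 arrays (y axis, log2 signal minus the array's 75th percentile), by group; bars are group means, and open circles are arrays where the gene was not well above background. Csf3 runs from -3.31 in normal Matrigel to 2.20 in tumor Matrigel, and Ddit3 and Trib3 stand out in tumor Matrigel alone among the 4 groups.

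Wnt pathway genes were among the reversed ones. Lef1, a transcription factor that acts with beta-catenin, read -0.73, -2.02 and -1.81 in normal Matrigel, 0.80, 0.77 and 0.70 in normal collagen I, 1.10, 1.15 and -0.44 in tumor Matrigel and -0.40, -0.59 and -0.27 in tumor collagen I. Normal Matrigel was lowest, and tumor mouse C in Matrigel fell within the range of tumor collagen I. The interaction was -3.30 ± 0.60 (limma adjusted p = 0.0312), and a second probe gave -3.18. Wnt7b, a secreted Wnt ligand, had gel differences of 1.21 in normal and -0.73 in tumor organoids, where mouse C was level at 1.57 in both gels. Its interaction was -1.95 ± 0.43 (limma adjusted p = 0.044). Of 22 Wnt genes tested these 2 were called lower and none higher, and the median was -0.34. At an unadjusted p under 0.05, 3 were higher and 5 lower, against 13.5% and 12.5% of all genes. The interaction was positive in 8 of the 22.

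Several other reversed genes are given singly, and a pathway common to them was not sought. Cidea, a lipid droplet protein, had gel differences of 1.41 and -1.28 and an interaction of -2.69 ± 0.57 (limma adjusted p = 0.0403). Its tumor gels overlapped, with mouse C at 2.76 in collagen I and the Matrigel arrays at 2.53 to 3.29. Lbp, the lipopolysaccharide-binding protein, had 1.15 and -1.66, with an interaction of -2.81 ± 0.53 (limma adjusted p = 0.0325). Slc7a3, a transporter of cationic amino acids, had 1.16 and -1.96 (limma adjusted p = 0.0458 for an interaction of -3.12 ± 0.70). Avpr1a, a vasopressin receptor, read 0.21, -0.21 and 0.04 in normal Matrigel, 0.73, 1.03 and 1.30 in normal collagen I, -0.24, 0.44 and 0.21 in tumor Matrigel and -1.69, -1.10 and -1.40 in tumor collagen I. Its Matrigel groups overlapped, with collagen I above them in normal and below them in tumor organoids. The interaction was -2.54 ± 0.34 (limma adjusted p = 0.0103). Chil1, a chitinase-like protein, was higher on every tumor than every normal array, yet its gel difference was 0.85 in normal and -1.48 in tumor organoids, with an interaction of -2.33 ± 0.27 (limma adjusted p = 0.00771). Cdo1, which oxidises cysteine, Fn3k, which removes sugar from glycated protein, and Rapsn, which clusters acetylcholine receptors, had interactions of -2.12, -2.11 and -2.22 (limma adjusted p = 0.0112, 0.0125 and 0.0103). These last 5, from Avpr1a to Rapsn, were robust to single arrays.

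The opposite reversal, lower in collagen I in normal and higher in tumor organoids, included Idi1 and Stard4 of cholesterol metabolism. Idi1, isopentenyl-diphosphate isomerase of that pathway, read 3.59, 3.59 and 3.76 in normal Matrigel, 2.85, 2.28 and 2.25 in normal collagen I, 0.72, 1.29 and 0.67 in tumor Matrigel and 2.40, 2.16 and 2.53 in tumor collagen I. Normal Matrigel was highest, tumor Matrigel lowest, and the 2 collagen I groups overlapped. Its gel differences were -1.19 and 1.47, the interaction was 2.66 ± 0.32 (limma adjusted p = 0.00779), a second probe gave 2.66, and the call was robust to single arrays. Stard4, which moves cholesterol between membranes, read 1.54, 1.02 and 1.33 in normal Matrigel, 0.89, 0.26 and 0.40 in normal collagen I, -0.08, 0.06 and -0.79 in tumor Matrigel and 0.47, 0.68 and 0.51 in tumor collagen I, with an interaction of 1.61 ± 0.36 (limma adjusted p = 0.0458). Its gel groups did not overlap in either tissue, but 2 other probes gave interactions of 1.02 and 1.06 with tumor gel differences of only 0.22 and 0.19 (unadjusted limma p of the interaction = 0.0702 and 0.0625). Of 24 genes of cholesterol synthesis and its control, these 2 were called higher and none lower, and 6 were higher at an unadjusted p under 0.05, among them Hmgcs1 (1.56) and Cyp51 (1.48), which were not called. The list's median gel difference was -0.53 in normal and 0.0034 in tumor organoids, so the list as a whole did not reverse. The interaction was positive in 21 of the 24, with a median of 0.58 against -0.03 over all genes, and of 0.78 after quantile normalization. With the slide as a block it was 0.11, against -0.12 over all genes, and within slides 0.53. By array the list's centred median was -0.42 and -0.30 in tumor Matrigel of mice A and C and 0.57 in mouse B.

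Rnase4, a secreted ribonuclease, read 2.97, 2.47 and 2.18 in normal Matrigel, 1.59, 1.61 and 1.81 in normal collagen I, -1.75, -1.73 and -1.57 in tumor Matrigel and -0.08, -0.38 and 0.36 in tumor collagen I. All normal arrays were above all tumor arrays, with Matrigel the higher gel in normal and the lower in tumor organoids. The interaction was 2.52 ± 0.33 (limma adjusted p = 0.0103) and robust to single arrays. Gsg1l, an auxiliary subunit of AMPA receptors, and Ugt8a, which makes galactosylceramide, had interactions of 3.30 ± 0.53 (limma adjusted p = 0.0223) and 2.95 ± 0.51 (limma adjusted p = 0.0278). Aldh1a7, an aldehyde dehydrogenase, and Myh1, a skeletal muscle myosin heavy chain, were not well above background in tumor Matrigel and there at least 2.32-fold and 1.04-fold lower than in collagen I. Their interactions were 3.12 ± 0.50 (limma adjusted p = 0.0223) and 3.77 ± 0.61 (limma adjusted p = 0.0223), or 2.60 and 1.91 at the bound. Myh1 was also not well above background on tumor collagen I of mouse B. At 1.04-fold, its bound is too small to show the reversal. A230107N01Rik, Higd1b, Btn2a2 and Prkcq were called higher at fitted values of 3.19, 2.43, 2.09 and 2.08 (limma adjusted p = 0.0391, 0.0482, 0.0223 and 0.0458). None of the 4 was well above background on any tumor Matrigel array, nor Btn2a2 in normal collagen I. With those groups at their bounds the interactions were 1.03, 0.84, 0.91 and -0.03. For A230107N01Rik, Higd1b and Prkcq the bound shows no higher level in tumor collagen I, so their reversal is not shown. Btn2a2 was at least 1.37-fold higher in tumor collagen I and at least 1.37-fold lower in normal collagen I. After normexp correction the 4 turned negative, at -0.15, -0.27, -0.52 and -0.59.

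The integrated stress response had the most called genes of the 29 lists examined. The lists were chosen with earlier results of these data known, so this rank adds no support. Of its 22 genes, 10 were called lower and none higher, 17 were lower and 1 higher at an unadjusted p under 0.05, and 21 had a negative interaction. The median was -1.44, against -0.03 over all genes and -0.35 in the brightest bin, and was -1.15 after quantile normalization and -1.18 after normexp. The list's median gel difference was 0.08 in normal and -1.36 in tumor organoids. Leaving out single arrays moved the median interaction between -1.61 and -1.35, and it was -1.92 with the slide as a block and -2.11 within slides. The centred median of the list was 0.93, 1.01 and 1.51 on the 3 tumor Matrigel arrays and -0.49 to -0.06 on the other 9, without overlap.

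Ddit3, which encodes the transcription factor CHOP, read -1.07, -0.97 and -0.69 in normal Matrigel, -1.06, -1.11 and -1.08 in normal collagen I, 2.46, 3.60 and 2.88 in tumor Matrigel and -0.46, -0.25 and -0.03 in tumor collagen I. Only the tumor Matrigel arrays stood high, and the normal gels overlapped. Its gel differences were -0.17 in normal and -3.23 in tumor organoids, and the interaction was -3.05 ± 0.37 (limma adjusted p = 0.00819). Trib3, a pseudokinase induced by ATF4 and CHOP, read 3.13, 3.09 and 3.21 in normal Matrigel, 3.19, 3.29 and 3.05 in normal collagen I, 5.43, 5.20 and 5.91 in tumor Matrigel and 2.91, 3.02 and 2.83 in tumor collagen I. Again tumor Matrigel alone was high, and the other 9 arrays lay between 2.83 and 3.29. The interaction was -2.62 ± 0.27 (limma adjusted p = 0.00486), with -2.65 from a second probe, and the calls of Ddit3 and Trib3 were robust to single arrays. Atf4 itself, the transcription factor of the pathway, had an interaction of -1.24 ± 0.26 (limma adjusted p = 0.0412), and its relative Atf5 one of -1.89 ± 0.36 (limma adjusted p = 0.0336).

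Other members called lower act in amino acid transport, amino acid synthesis and further branches of the response. Slc3a2 and Slc7a5, the chains of the large neutral amino acid transporter, had interactions of -1.76 ± 0.29 (limma adjusted p = 0.0235) and -2.18 ± 0.44 (limma adjusted p = 0.0365). Asns, asparagine synthetase, read 4.08, 4.56 and 4.55 in normal Matrigel, 4.73, 4.36 and 4.28 in normal collagen I, 6.33, 6.04 and 6.61 in tumor Matrigel and 4.68, 4.96 and 4.74 in tumor collagen I, with an interaction of -1.60 ± 0.30 (limma adjusted p = 0.0324). Chac1, which degrades glutathione, read 0.13, 0.67 and 0.78 in normal Matrigel, 0.99, 0.82 and 0.66 in normal collagen I, 2.65, 2.20 and 3.47 in tumor Matrigel and 0.29, 0.95 and 0.71 in tumor collagen I, with an interaction of -2.43 ± 0.45 (limma adjusted p = 0.0316). For both, the tumor Matrigel arrays lay above the other 9. Mthfd2, of mitochondrial one-carbon metabolism, and Gdf15, a secreted stress cytokine, had interactions of -2.20 ± 0.45 (limma adjusted p = 0.0365) and -2.87 ± 0.58 (limma adjusted p = 0.0365). The 6 called members Atf4, Atf5, Asns, Slc7a5, Mthfd2 and Gdf15 are named because they were called, after their values were seen.

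ATF4 and its partners are known to bind amino acid response elements, so the promoters of these genes were searched for the letters TGATGNAA on both strands, overlaps counted. The sequences are RefSeq's, on GRCm38.p6, from 250 bases before to 50 after an annotated start. Of 9 called members with a promoter in the table, 3 held a match, and of 20 list genes with one 7 did, against 3.97% of all 32851 promoters. Here and below a gene counts if any of its promoters matches, while the share of all is per promoter. The list was drawn up from known genes of the pathway, so its share says nothing about the interaction. The 3 are shown because they carry those letters, in capitals, in genes that were high in tumor Matrigel. They are Asns at chr6:7693160-7693459 (minus strand), Chac1 at chr2:119350992-119351291 (plus strand) and Trib3 at chr2:152344011-152344310 (minus strand), with the match beginning at -23, -193 and 14 bases from the start. A match is not a measured binding site, and no match says only that these letters are not in the window.
Asns: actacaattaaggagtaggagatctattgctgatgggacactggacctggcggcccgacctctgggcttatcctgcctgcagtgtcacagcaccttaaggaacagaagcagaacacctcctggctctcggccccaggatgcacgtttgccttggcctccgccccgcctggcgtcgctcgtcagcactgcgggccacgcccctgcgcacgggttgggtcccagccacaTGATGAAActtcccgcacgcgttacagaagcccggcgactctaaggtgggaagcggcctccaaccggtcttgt
Chac1: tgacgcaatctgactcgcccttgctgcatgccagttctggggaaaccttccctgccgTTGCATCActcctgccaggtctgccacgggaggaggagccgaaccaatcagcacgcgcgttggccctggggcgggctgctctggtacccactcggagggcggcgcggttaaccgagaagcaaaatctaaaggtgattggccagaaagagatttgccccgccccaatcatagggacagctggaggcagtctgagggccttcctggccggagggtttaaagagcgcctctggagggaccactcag
Trib3: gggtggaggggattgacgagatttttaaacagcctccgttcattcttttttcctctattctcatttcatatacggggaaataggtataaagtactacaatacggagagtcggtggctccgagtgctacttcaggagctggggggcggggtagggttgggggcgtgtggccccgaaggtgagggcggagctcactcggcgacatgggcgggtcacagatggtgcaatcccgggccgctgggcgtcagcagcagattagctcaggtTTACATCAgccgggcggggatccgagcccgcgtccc
The unfolded protein motif CCACG was held by 16 of the 17 list genes of the endoplasmic reticulum with a promoter, neither called gene being among the 17, and by 32.8% of all promoters. The AP-1 motif TGANTCA was held by none of 13 immediate early genes with a promoter and by 7.81% of all promoters.

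Neighbouring stress lists had the same sign with fewer calls. Of 14 tRNA synthetases, 4 were called lower and none higher: Sars (-1.31 ± 0.23 (limma adjusted p = 0.0287)), Yars (-1.22 ± 0.25 (limma adjusted p = 0.0373)), Mars1 (-1.16 ± 0.27 (limma adjusted p = 0.0492)) and Cars (-1.26 ± 0.29 (limma adjusted p = 0.0492)), which charge tRNA with serine, tyrosine, methionine and cysteine. All 14 had a negative interaction, with a median of -0.79 and of -0.66 after quantile normalization. Of 20 genes of the endoplasmic reticulum and unfolded protein response, 2 were called lower, 14 were lower at an unadjusted p under 0.05 and all 20 were negative, with a median of -0.77. They were Atf6, a stress sensor of that compartment (-1.04 ± 0.23 (limma adjusted p = 0.0458), with -0.45 from a second probe), and Hyou1, a chaperone (-1.42 ± 0.32 (limma adjusted p = 0.0458)). Xbp1, at -1.20, and the chaperone Hspa5, at -0.63, were not called. Ribosomal protein genes are bright on these arrays: 1 of 20, Rpl10, was called lower (-1.01 ± 0.23 (limma adjusted p = 0.0473)), and their median was -0.76, or -0.16 after quantile normalization.

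**Figure D4:**
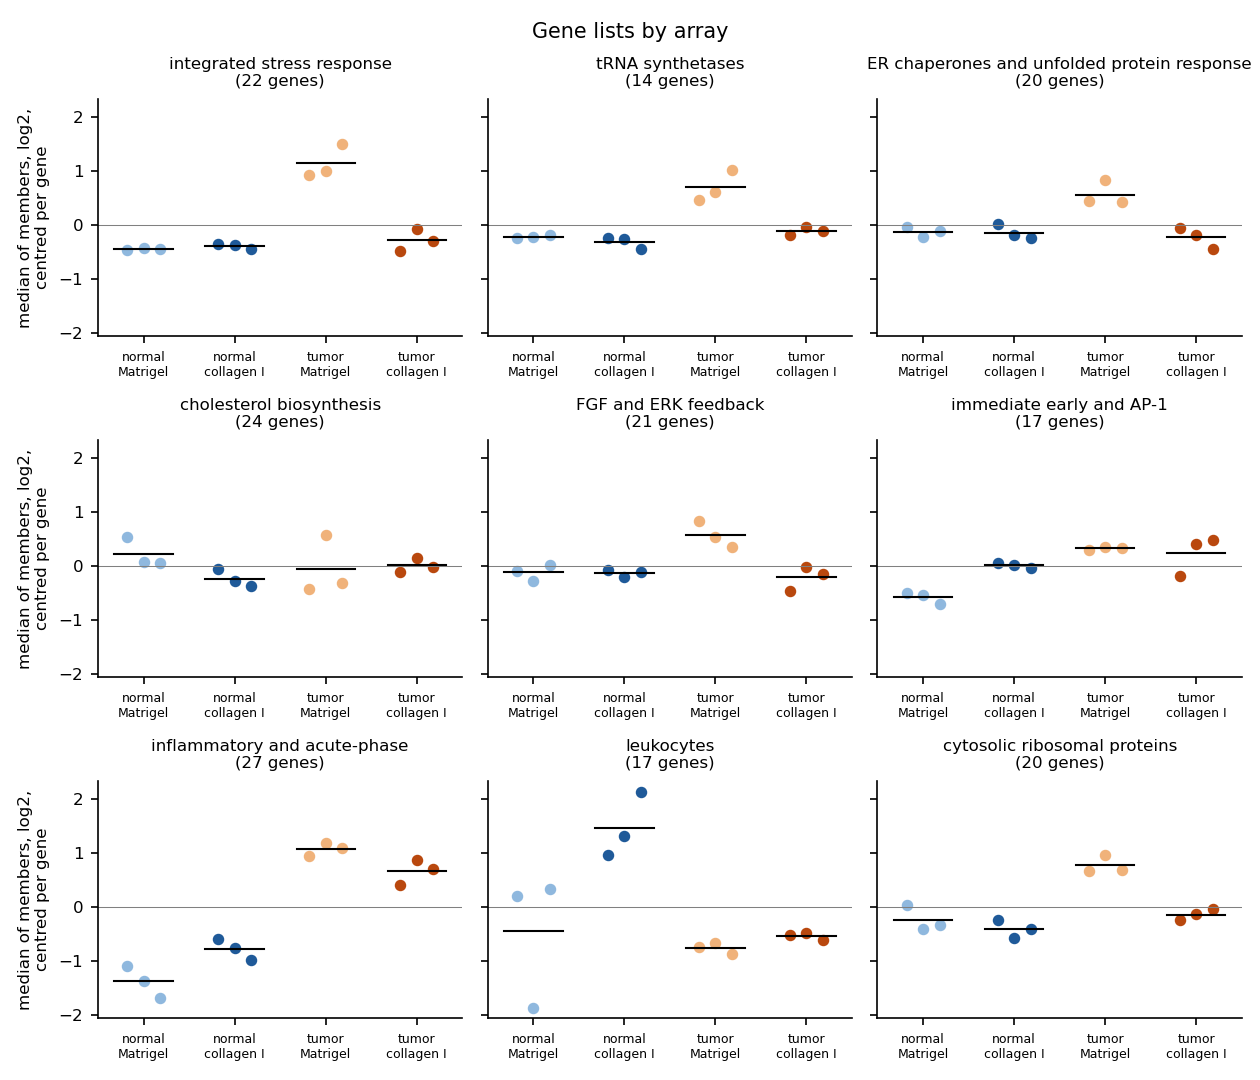
Median over the members of 9 gene lists on each of the 12 arrays (y axis, log2, each gene centred on its mean over the arrays), by group; bars are means of 3 arrays. The integrated stress response stands at 0.93 to 1.51 on the tumor Matrigel arrays and at -0.49 to -0.06 on the other 9, and the leukocyte list is highest in normal collagen I.

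Several inflammatory genes were called lower. Of 27 cytokine, chemokine and acute-phase genes, 4 were called lower and none higher, 11 were lower at an unadjusted p under 0.05, and the median was -0.87 (-0.61 after quantile normalization). Beside Csf3 these were the chemokines Ccl5 and Ccl20, which attract leukocytes, and the acute-phase protein Orm1. Ccl5 read -1.09, -2.04 and -2.34 in normal Matrigel, -0.79, -1.49 and -0.91 in normal collagen I, 3.04, 3.57 and 2.05 in tumor Matrigel and 0.48, 0.47 and 0.56 in tumor collagen I. Tumor Matrigel was highest, tumor collagen I was next, and the normal gels overlapped. The interaction was -3.14 ± 0.57 (limma adjusted p = 0.0302), with -3.07 from a second probe. Ccl20 was reversed, with gel differences of 1.12 and -1.46 and an interaction of -2.58 ± 0.56 (limma adjusted p = 0.0438). Orm1 was not well above background in normal Matrigel, at least 1.22-fold higher in normal collagen I, and had an interaction of -1.81 ± 0.37 (limma adjusted p = 0.0374), or -1.23 at the bound. Bpifb1, a secreted protein of mucosal surfaces outside the list, had gel differences of 0.48 and -3.83 and an interaction of -4.30 ± 0.88 (limma adjusted p = 0.0373). Cxcl1 and Ptgs2, at -1.53 and -1.46, were not called.

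A few growth factor feedback and immediate early genes were called lower. Of 21 FGF and ERK feedback genes, 2 were called lower and none higher, 7 were lower and 1 higher at an unadjusted p under 0.05, and the median was -0.81. Spry2, an inhibitor of receptor tyrosine kinase signalling, had an interaction of -1.52 ± 0.26 (limma adjusted p = 0.0264), although a second probe gave -0.47. Errfi1, an inhibitor of the EGF receptor, was reversed at -1.44 ± 0.29 (limma adjusted p = 0.0365). Of 17 immediate early genes 3 were called lower and none higher, with a median of -1.05. Junb, an AP-1 subunit, was reversed, with gel differences of 1.18 and -0.65 and an interaction of -1.83 ± 0.40 (limma adjusted p = 0.044). The orphan nuclear receptors Nr4a1 and Nr4a2 moved in normal organoids. Nr4a2 read -1.86, -1.65 and -2.11 in normal Matrigel, -0.49, 0.02 and 0.36 in normal collagen I, -0.68, -0.30 and -0.72 in tumor Matrigel and -0.22, -0.25 and -0.09 in tumor collagen I. Normal Matrigel was the low group, and normal collagen I overlapped both tumor groups. The interactions were -1.28 ± 0.28 (limma adjusted p = 0.0438) for Nr4a1 and -1.46 ± 0.32 (limma adjusted p = 0.0458) for Nr4a2.

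Other genes high in tumor Matrigel had a lower interaction. Gne, the key enzyme of sialic acid synthesis, read 0.99, 0.84 and 0.70 in normal Matrigel, 0.90, 0.92 and 0.68 in normal collagen I, 4.17, 4.76 and 4.09 in tumor Matrigel and 2.15, 2.13 and 2.22 in tumor collagen I. Tumor Matrigel was highest and tumor collagen I next, and the normal gels overlapped. The interaction was -2.16 ± 0.27 (limma adjusted p = 0.00964), and 2 other probes gave -2.01 and -0.40. Megf6, a protein with EGF-like repeats, and Lyzl4, a lysozyme-like protein, had interactions of -2.50 ± 0.32 (limma adjusted p = 0.00964) and -1.68 ± 0.24 (limma adjusted p = 0.0125), and all 3 calls were robust to single arrays.

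Genes with a higher interaction were mostly low in tumor Matrigel. Pappa, a secreted protease that releases insulin-like growth factors from their binding proteins, read -2.27, -1.42 and -2.56 in normal Matrigel, -3.06, -2.75 and -2.97 in normal collagen I, -6.10, -4.77 and -4.70 in tumor Matrigel and -2.14, -0.77 and -1.59 in tumor collagen I. Tumor Matrigel was the lowest group and was well above background on 2 of its 3 arrays, and tumor collagen I overlapped normal Matrigel. Its gel differences were -0.85 in normal and 3.68 in tumor organoids, the interaction was 4.53 ± 0.63 (limma adjusted p = 0.0125), and the call was robust to single arrays. After normexp correction the interaction was 1.57 and not called. Slit2, a secreted guidance ligand of Robo receptors, read -0.59, -0.30 and 0.09 in normal Matrigel, -0.78, -0.35 and -0.24 in normal collagen I, -7.08, -4.65 and -5.64 in tumor Matrigel and -2.78, -2.36 and -2.86 in tumor collagen I. It was high in both normal groups, which overlapped, and lowest in tumor Matrigel, where it was well above background on 1 of 3 arrays. The interaction was 3.31 ± 0.69 (limma adjusted p = 0.0384), with 3.65 from a second probe.

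Gucy1a1 and Gucy1b1, the 2 subunits of the nitric oxide receptor soluble guanylate cyclase, had the same pattern. Gucy1b1 read -0.86, -1.34 and -1.34 in normal Matrigel, -1.60, -1.73 and -1.40 in normal collagen I, -6.78, -6.89 and -7.17 in tumor Matrigel and -3.71, -3.65 and -3.66 in tumor collagen I. Tumor Matrigel was not well above background, tumor collagen I was intermediate, and both normal gels were higher, Matrigel above collagen I without overlap. In tumor organoids Gucy1b1 was at least 3.03-fold higher in collagen I and Gucy1a1 at least 2.1-fold. The interactions were 3.67 ± 0.26 (limma adjusted p = 0.000486) and 3.32 ± 0.35 (limma adjusted p = 0.00486), both robust to single arrays, and 2.00 and 1.31 with tumor Matrigel at its bound. Other probes gave 2.99 and 0.72 for Gucy1b1 and 1.99 for Gucy1a1. After normexp correction they were -0.033 and -0.34. Ctnnd2, a delta-catenin of cell junctions, was at least 1.48-fold higher in tumor collagen I. Its interaction was 2.57 ± 0.26 (limma adjusted p = 0.00486), robust to single arrays, but 0.76 at the bound, -0.59 after normexp and -0.28 from a second probe.

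Mpdz, a scaffold with many PDZ domains, and the cilium genes Rpgr and Rpgrip1l were each lower on the 3 tumor Matrigel arrays than on the other 9. Mpdz read -1.37, -1.70 and -1.69 in normal Matrigel, -1.34, -1.33 and -1.14 in normal collagen I, -3.74, -3.67 and -3.65 in tumor Matrigel and -1.34, -1.61 and -1.71 in tumor collagen I, with an interaction of 1.82 ± 0.23 (limma adjusted p = 0.00964) and 1.06 from a second probe. Rpgr and Rpgrip1l, both of the ciliary transition zone, had interactions of 1.92 ± 0.26 (limma adjusted p = 0.0103) and 2.26 ± 0.26 (limma adjusted p = 0.00735). All 3 calls were robust to single arrays. After normexp Rpgr was at -0.12, and the 2 other probes of Rpgrip1l gave 0.36 and 0.63. Ucma, a cartilage protein, the calcium channel Cacna1g, the prostaglandin-degrading enzyme Hpgd, the noncoding Mir99ahg and BC016548 were not well above background in tumor Matrigel. There they were at least 2.81-, 2.42-, 2.68-, 5.89- and 2.41-fold lower than in tumor collagen I. Their interactions were 4.31, 3.54, 3.26, 3.96 and 3.31 (limma adjusted p = 0.0232, 0.0325, 0.0374, 0.0325 and 0.0398). With tumor Matrigel at its bound they were 2.14, 1.28, 1.25, 2.33 and 1.70. Other probes gave 2.00 for Cacna1g, 2.31 for Hpgd and 2.30 and 1.79 for Mir99ahg. All but Ucma turned negative after normexp, at -0.33, -0.60, -0.010 and -0.17. BC016579, well above background on 1 of 3 tumor Matrigel arrays, had an interaction of 3.42 ± 0.65 (limma adjusted p = 0.0325).

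In a smaller group only the normal gel difference had an unadjusted limma p under 0.05. Foxa2, a forkhead transcription factor of endoderm-derived epithelia, read -5.32, -6.54 and -8.20 in normal Matrigel, -2.57, -2.17 and -4.00 in normal collagen I, 1.44, 1.34 and 0.66 in tumor Matrigel and 0.18, 1.04 and 0.32 in tumor collagen I. In normal Matrigel it was well above background in mouse A alone, and the tumor gels overlapped. Its gel differences were 3.77 and -0.63, with an interaction of -4.40 ± 0.94 (limma adjusted p = 0.041). The chemokine Cxcl17, the receptor gene Pilrb1, the apolipoprotein Apoc2 and Aldh1a2, which makes retinoic acid, had positive gel differences in normal organoids, with interactions of -2.86, -2.33, -2.13 and -2.39 (limma adjusted p = 0.0325, 0.0389, 0.0446 and 0.0441). Pilrb1 was not well above background in normal Matrigel and at least 1.88-fold higher in normal collagen I, with an interaction of -1.22 at the bound. St8sia6, a sialyltransferase, had a gel difference of -1.94 in normal organoids, with an interaction of 2.56 ± 0.51 (limma adjusted p = 0.0365). Its 2 other probes gave 3.08 and 2.59. Gipr, the receptor of the hormone GIP, the keratin Krt28 and Gm11346 had interactions of 1.86, 2.46 and 2.37 (limma adjusted p = 0.0323, 0.0493 and 0.0223). Krt28 and Gm11346 were not well above background on any of the 9 arrays outside normal Matrigel, so they have no measured gel difference in tumor organoids. They passed the filter only through normal Matrigel, where they were high, so their lower level elsewhere is no support for an interaction. They were at least 1.98-fold and 2.15-fold lower in normal collagen I, and with the 3 dim groups at their bounds the interactions were 0.36 and 0.48. Gipr was well above background on 1 of 3 normal collagen I arrays, and its tumor gels did not overlap, at a gel difference of 0.37. The 3 interactions turned to -0.33, -0.45 and -0.56 after normexp.

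Foxj1, the transcription factor of motile cilia, was higher in collagen I in both tissues by different amounts. It read -4.41, -3.70 and -3.81 in normal Matrigel, -0.60, -0.14 and -1.34 in normal collagen I, -0.78, -1.33 and -1.33 in tumor Matrigel and -0.48, 0.47 and -0.28 in tumor collagen I. Normal Matrigel was far below the other 9 arrays, and normal collagen I overlapped tumor Matrigel. The gel differences were 3.28 and 1.05, with an interaction of -2.23 ± 0.50 (limma adjusted p = 0.0458). Of 11 motile cilia genes tested Foxj1 alone was called, lower, and the median was -0.36.

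Matrix and adhesion genes gave few calls. Col18a1, the basement membrane collagen that yields endostatin, was the only call among 22 basement membrane genes (median -0.38), reversed with gel differences of 0.62 and -1.30, an interaction of -1.92 ± 0.39 (limma adjusted p = 0.0365) and -1.96 from a second probe. Itga3, the alpha chain of the laminin receptor alpha3beta1, was the only call among 25 integrins and matrix receptors, at -1.74 ± 0.41 (limma adjusted p = 0.0494), with -1.09 and -1.67 from other probes. Pappa was the only call among 33 proteases and inhibitors. None of 28 fibrillar collagen and matricellular genes was called by limma, with 3 higher and 2 lower at an unadjusted p under 0.05. Fn1 (fibronectin) had an interaction of 0.47 ± 0.44 (limma adjusted p = 0.533), Spp1 (osteopontin) of -0.28 ± 0.26 (limma adjusted p = 0.527), and Ccn2, the current name of Ctgf, of -1.10 ± 0.50 (limma adjusted p = 0.193). Mmp14, the membrane collagenase MT1-MMP, had -0.44 ± 0.31 (limma adjusted p = 0.402), and Itga2, of the collagen receptor alpha2beta1, -0.20 ± 0.43 (limma adjusted p = 0.81). None of 13 EMT genes was called, with 2 higher and 3 lower unadjusted. Snai1 had -1.46 ± 0.52 (limma adjusted p = 0.114), Twist1 -0.43 ± 1.19 (limma adjusted p = 0.851), Vim 0.40 ± 0.77 (limma adjusted p = 0.782) and S100a4 1.01 ± 0.89 (limma adjusted p = 0.503).

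Most epithelial identity markers were detected in every group. All 8 luminal markers were well above background on all 12 arrays. Of the 8 basal markers, 7 were so on the tumor Matrigel arrays, where Oxtr was not, and 8 on the others. The summed luminal level was 1153 to 1699 in tumor Matrigel and 619 to 899 on the other arrays, and their part in the calls was not tested. Of 18 luminal genes 2 were called lower and none higher: Elf3, an epithelial transcription factor (-1.51 ± 0.29 (limma adjusted p = 0.0338)), and Prom1, a membrane protein of luminal cells (-1.59 ± 0.27 (limma adjusted p = 0.0259), reversed). Krt8 had an interaction of -0.55 ± 0.33 (limma adjusted p = 0.313) and Cdh1, which encodes E-cadherin, 0.48 ± 0.65 (limma adjusted p = 0.682). No basal gene of 18 was called, with 1 higher and 2 lower unadjusted. Some basal markers were far lower in tumor organoids. In Matrigel, Myh11 averaged 2.53 in normal and -4.51 in tumor organoids, Cnn1 4.59 and -0.88, and Oxtr -0.995 and -6.47. The Oxtr interaction of 3.03 ± 0.74 (limma adjusted p = 0.0554), with a tumor gel difference of 2.90, rests on tumor Matrigel values below background. Krt14, Krt17 and Trp63 averaged higher in tumor than in normal organoids in both gels. Krt14, a basal keratin, ran from 4.44 to 7.43 within normal Matrigel and gave 0.49 ± 1.07 (limma adjusted p = 0.811), and Krt5 gave 0.60 ± 0.89 (limma adjusted p = 0.713). Trp63, the basal transcription factor p63, gave 0.26 ± 0.45 (limma adjusted p = 0.76), with 0.38 and 1.58 from other probes, and Acta2, smooth muscle actin, -0.22 ± 0.24 (limma adjusted p = 0.612), although the 3 other probes of Acta2 gave 3.56, 2.47 and -0.68.

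Other cell types differed between the tissues. The summed level of fibroblast and pericyte markers was 20.0 to 128 in normal Matrigel, 31.6 to 75.7 in normal collagen I and 4.40 to 10.9 in the tumor groups. Endothelial markers summed to 4.07 to 9.85 in normal and 0.24 to 0.70 in tumor organoids, and adipocyte markers to 9.86 to 52.2 and 0.65 to 1.51. In the tumor groups 4 to 6 of 8 endothelial and 1 to 4 of 6 adipocyte markers were well above background. In normal organoids 7 to 8 endothelial markers were so, with 3 to 5 adipocyte markers in Matrigel and 2 to 3 in collagen I. Fabp4, the brightest adipocyte marker tested, averaged 4.63 in normal Matrigel and 3.82 in normal collagen I. In tumor organoids it averaged -0.07 in Matrigel and -0.20 in collagen I, and the linear adipocyte sum mostly follows it in normal organoids. None of 16 fibroblast or 15 endothelial genes was called, with 0 and 0 higher and 2 and 2 lower unadjusted. Of 6 adipocyte genes 1, Cidea, was called lower. It went against most of its list, where 4 of the 6 had a positive interaction and the median was 0.41. Col1a2 had an interaction of 0.06 ± 0.90 (limma adjusted p = 0.976), Fbln2 of -1.46 ± 0.57 (limma adjusted p = 0.14), Egfl7 of -0.07 ± 0.36 (limma adjusted p = 0.926) and Flt1 of -0.40 ± 0.39 (limma adjusted p = 0.559).

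The remaining lists held no called gene. Of 28 cell cycle genes 3 were higher and 0 lower at an unadjusted p under 0.05, with Pcna at 0.48 ± 0.34 (limma adjusted p = 0.384) and Mcm6 at 0.29 ± 0.54 (limma adjusted p = 0.772). Of 20 hypoxia and glycolysis genes 1 was higher and 0 lower, with Aldoa at -0.43 ± 0.34 (limma adjusted p = 0.439) and Ldha at 0.14 ± 0.40 (limma adjusted p = 0.858). Of 28 interferon-stimulated genes 4 were higher and 0 lower, with B2m at -0.19 ± 0.41 (limma adjusted p = 0.804) (-0.088 and 1.02 from other probes) and Bst2 at -0.10 ± 0.48 (limma adjusted p = 0.925). Of 27 SRF, YAP and TGF-beta targets 1 was higher and 4 were lower, with Actg1 at -0.51 ± 0.32 (limma adjusted p = 0.344) and Tgfb3 at -0.62 ± 0.42 (limma adjusted p = 0.382). Of 21 junction genes 0 were higher and 0 lower, with Ctnna1 at -0.36 ± 0.21 (limma adjusted p = 0.303) (2.26 from a second probe) and F11r at -0.39 ± 0.26 (limma adjusted p = 0.356). Of 14 milk genes 2 were higher and 4 lower, with Mfge8 at -0.75 ± 0.25 (limma adjusted p = 0.107) and Plin2 at -0.75 ± 0.33 (limma adjusted p = 0.187). Of 19 keratinization genes 1 was higher and 1 lower, with Sfn at 0.05 ± 0.50 (limma adjusted p = 0.96) and Sprr2a1 at -0.68 ± 0.24 (limma adjusted p = 0.114) (0.12 from a second probe). Of 10 hormone-sensing genes 0 were higher and 0 lower, with Areg at -1.81 ± 0.82 (limma adjusted p = 0.192) and Ly6a at -0.30 ± 0.78 (limma adjusted p = 0.841).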

How the data were processed

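RNA from mouse mammary organoids was amplified, labelled with Cy3 and hybridised to 1-colour Agilent arrays, per the labels' protocols. Each deposited intensity is a spot's processed signal from Agilent Feature Extraction, version 9.5 per the file headers and 9.1 per the submitters' processing notes. The authors' deposited log2 values, of unstated centring, served as an alternative. Here the log2 intensities were centred on the 75th percentile of their array, and a probe's spots were averaged without control or outlier spots. Probes needed to stand well above background throughout 1 group or more and to have 2 or more values per group, and the probe with the highest mean stood for its gene. Of 41174 probes, 56.0% were named by accession through the RefSeq genes of GRCm38.p6, 16.0% by a current symbol, 7.47% by a synonym and 20.5% as in the files.

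The interaction was fitted by limma 3.58.1 under R 4.3.3, with version 1.17.8 of data.table, and was tested on simulated data. The model held 1 coefficient for each group, with 8 residual and 2.73 prior degrees of freedom. The 2 batch 1 arrays entered 1 alternative. Within a tissue a letter marks 1 animal, as the labels give it. The deviations of a mouse's 2 arrays from the means of their groups had correlations over genes of 0.23 (A) and -0.25 (B) in normal mice. In tumor mice these were -0.06 (A), 0.33 (B) and 0.42 (C). Group members and gene lists were chosen with earlier results of these data known. Named were the 12 genes per direction with the largest called interaction and up to 10 reversed and 5 normal-only genes per direction. Also named were up to 4 called members of each of 29 lists (606 entries), or the 2 brightest, and 12 genes in any case. The rule gave 104 genes, and 12 more robust to single arrays and 6 called stress genes were added after their values were seen. Alternatives changed the scaling, background correction, filters, probe rule, variances, blocks and arrays. The number of arrays limits the precision. Promoters were searched with Python 3.11.15, and figures drawn with matplotlib 3.10.9.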

Additional observations from a re-analysis of the deposited data

Results flagged for a closer look

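The gel difference of 479 genes differed between the tissues by the limma test of that difference, and 87 of them are named. Among named genes whose gel difference reversed, the positive interactions were Myh1 3.77, Gsg1l 3.30, A230107N01Rik 3.19, Aldh1a7 3.12, Ugt8a 2.95, Idi1 2.66, Rnase4 2.52, Higd1b 2.43, Btn2a2 2.09, Prkcq 2.08 and Stard4 1.61. Reversed genes with a negative interaction were Dynap -5.70, Kng1 -5.33, Comp -4.99, Vnn3 -4.44, Csf3 -4.27, Cd68 -4.08, Prl6a1 -3.99, Il23a -3.43, Lef1 -3.30, Slc7a3 -3.12, Gdf15 -2.87, Lbp -2.81, Cidea -2.69, Ccl20 -2.58, Avpr1a -2.54, C1qb -2.54, Chil1 -2.33, Rapsn -2.22, Cdo1 -2.12, Fn3k -2.11, Wnt7b -1.95, Col18a1 -1.92, Junb -1.83, Orm1 -1.81, Prom1 -1.59 and Errfi1 -1.44. Without a reversal, positive interactions were Pappa 4.53, Ucma 4.31, Mir99ahg 3.96, Gucy1b1 3.67, Cacna1g 3.54, BC016579 3.42, Gucy1a1 3.32, BC016548 3.31, Slit2 3.31, Hpgd 3.26, Ctnnd2 2.57, St8sia6 2.56, Krt28 2.46, Gm11346 2.37, Rpgrip1l 2.26, Rpgr 1.92, Gipr 1.86 and Mpdz 1.82. The others, negative without a reversal, were Foxa2 -4.40, Bpifb1 -4.30, Ccl5 -3.14, Ddit3 -3.05, Cxcl17 -2.86, Trib3 -2.62, Megf6 -2.50, Chac1 -2.43, Aldh1a2 -2.39, Pilrb1 -2.33, Foxj1 -2.23, Mthfd2 -2.20, Slc7a5 -2.18, Gne -2.16, Apoc2 -2.13, Atf5 -1.89, Slc3a2 -1.76, Itga3 -1.74, Lyzl4 -1.68, Asns -1.60, Spry2 -1.52, Elf3 -1.51, Nr4a2 -1.46, Hyou1 -1.42, Sars -1.31, Nr4a1 -1.28, Cars -1.26, Atf4 -1.24, Yars -1.22, Mars1 -1.16, Atf6 -1.04 and Rpl10 -1.01. All are fitted log2 values. Those of Dynap, Kng1, Vnn3, Prl6a1, Il23a, Orm1, Pilrb1, Myh1, A230107N01Rik, Aldh1a7, Higd1b, Btn2a2, Prkcq, Ucma, Mir99ahg, Gucy1b1, Cacna1g, Gucy1a1, BC016548, Hpgd, Ctnnd2, Krt28 and Gm11346 rest on at least 1 group below background on all its arrays, and for A230107N01Rik, Higd1b and Prkcq the bound does not show a reversal. For Myh1 the tumor bound, at 1.04-fold, is too small to show a reversal. Groups of 3 arrays are too small for a test of outlying arrays.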

How the results depend on the processing

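The counts of calls moved by more than 1.5 times under many settings, and the cause was not tested. Against 479 interaction calls, limma gave 217 after quantile normalization, 10 after normexp, 249 with both, 172 on the authors' values and 61 with no filter on dim probes. It gave 989 with trend and robust variances, 2288 with array weights and 2089 with batch 1 averaged in. With the mouse as fixed replicate block it gave 0 (3630 at an unadjusted p under 0.05), as random block 1640, with the slide as fixed block 1046 (80.0% higher, median over all genes -0.12) and as random block 1578. Leaving out single arrays gave 34 to 1932. Against 107 reversed genes, the same settings gave 69 with quantile normalization, 5 with normexp, 57 on the authors' values, 25 with no filter, 457 with weights and 264 with batch 1. Blocks gave 0 (mouse, fixed), 211 (mouse, random), 230 (slide, fixed) and 205 (slide, random), and single omissions 12 to 299. Against 7 calls between gels in normal organoids, quantile normalization gave 16, normexp 4, both 88, the filter on all arrays 11, the mean of probes 11, the mouse block 0 (fixed) or 71 (random), the slide block 0 (fixed) or 49 (random), batch 1 12, trend 14, weights 367, and single omissions 3 to 20. Against 4862 in tumor organoids, normexp gave 1236, the fixed slide block 2415, and single omissions 2590 to 5111. The pairing by mouse otherwise changed no direction among the 479, which were picked on the same arrays.

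Of 87 named called genes, 72 kept their sign under all alternatives, and the others reversed with normexp: Mir99ahg to -0.010, Gucy1b1 to -0.033, Cacna1g to -0.33, Gucy1a1 to -0.34, BC016548 to -0.17, Hpgd to -0.60, A230107N01Rik to -0.15, Higd1b to -0.27, Btn2a2 to -0.52, Prkcq to -0.59, Gm11346 to -0.56, Krt28 to -0.45, Gipr to -0.33, Ctnnd2 to -0.59 and Rpgr to -0.12. With the most variable probe, Acta2 turned to 3.56 and was called. Normexp kept 9 named calls, quantile normalization 51, the authors' values 47 and the fixed slide block 53. Areg was called with the fixed slide block, Fbln2 and Snai1 with array weights, Fbln2 without tumor collagen I of mouse C and Snai1 without tumor Matrigel of mouse C. Signal over background limits genes that were dim in tumor Matrigel, whose folds are approximate bounds.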
